A study of Mus musculus with 4 samples.

Results

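The 9 genes described here encode the receptors of the CD28 family (Cd28, Icos, Ctla4, Pdcd1 and Btla) and the B7 ligands of those receptors that T cells themselves can carry (Cd80, Cd86, Cd274 and Pdcd1lg2). They were taken by gene symbol from 50600 genes counted in 4 RNA sequencing libraries of primary mouse T cells. This rule uses no measured value, but the genes were chosen with earlier results of these data known. The 4 libraries form a single group: Mus musculus of strain C57BL/6NJ, primary cells with the cell type T-cell, biological replicates 1 to 4, sex not collected and age unknown. No genotype change or treatment is given by the sample labels, all libraries carry the same donor entry, and nothing states that they came from separate animals. A p-value here thus speaks for these samples only, whose differences may in part be technical. That of a gene pair concerns the direction of a difference within libraries, and that of a test of spread the differences between libraries. A differentiation protocol for CD4+ T cells is linked, and the deposited files name their alignments, for every library, with Th0, activated and 24h. With 1 group there is no contrast between conditions, and the comparisons below are between genes within a library and between libraries.

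A T cell receives, besides the signal of its antigen receptor, a second set of signals through receptors of the CD28 family. CD28 and ICOS carry co-stimulation, whereas CTLA-4, PD-1 (encoded by Pdcd1) and BTLA restrain the response. CD28 and CTLA-4 share the ligands CD80 and CD86, for which CTLA-4 has the higher affinity. PD-1 binds PD-L1 (encoded by Cd274) and PD-L2 (encoded by Pdcd1lg2), and ICOS binds ICOSL. BTLA is the exception, since its ligand HVEM (encoded by Tnfrsf14) belongs to the tumour necrosis factor receptor family. CD28 is present on resting T cells, whereas CTLA-4, ICOS and PD-1 are known to increase after activation.

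The receptors differ in short coding stretches, which are shown here from GENCODE vM21 transcripts on the GRCm38 genome because they are the known sites of ligand contact and of recruitment of signalling proteins. Each line runs 5′ to 3′ on the coding strand, with the motif codons in capitals and 9 flanking bases on either side. The extracellular loop that contacts CD80 and CD86 is encoded by exon 2 of Cd28 (codons 118 to 123, chr1:60763266-60763301, + strand) and exon 2 of Ctla4 (codons 134 to 139, chr1:60912704-60912739, + strand). The matching loop of Icos, which binds ICOSL instead, lies in its exon 2 (codons 114 to 119, chr1:60993974-60994009, + strand).
Cd28 ligand loop: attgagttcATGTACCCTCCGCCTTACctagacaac
Ctla4 ligand loop: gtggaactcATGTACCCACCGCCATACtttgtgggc
Icos ligand loop: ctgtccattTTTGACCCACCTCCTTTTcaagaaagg
Of the 18 loop bases, 16 were the same in Cd28 and Ctla4. The differences were T9A and T15A, written with the Cd28 base first, the position from 1 at the first loop base, and the Ctla4 base last.

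The cytoplasmic tails hold tyrosine motifs of known function. Those of Cd28 (codons 189 to 192, exon 4, chr1:60769684-60769713, + strand) and Icos (codons 181 to 184, exon 4, chr1:60995551-60995580, + strand) recruit phosphoinositide 3-kinase. That of Ctla4 (codons 201 to 204, exon 4, chr1:60914637-60914666, + strand) binds the clathrin adaptors that take the receptor off the surface.
Cd28 tail: caaagtgacTACATGAACATGactccccgg
Icos tail: aatagtgaaTACATGTTCATGgcggcagtc
Ctla4 tail: acaggggtcTATGTGAAAATGcccccaaca
Pdcd1 and Btla encode an inhibitory motif and a switch motif, through which phosphatases such as SHP-1 and SHP-2 are recruited. In Pdcd1 both lie in exon 5, at codons 223 to 228 (chr1:94039479-94039514, - strand) and 246 to 251 (chr1:94039410-94039445, - strand). In Btla both lie in exon 6, at codons 271 to 276 (chr16:45250481-45250516, + strand) and 296 to 301 (chr16:45250556-45250591, + strand).
Pdcd1 inhibitory motif: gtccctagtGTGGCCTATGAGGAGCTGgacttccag
Pdcd1 switch motif: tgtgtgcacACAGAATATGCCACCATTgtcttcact
Btla inhibitory motif: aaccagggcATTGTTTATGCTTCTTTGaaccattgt
Btla switch motif: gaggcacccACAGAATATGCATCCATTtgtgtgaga
These sequences come from the reference and were not read from the libraries, which give a number of fragments per gene only.

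In every library all 9 genes reached 1 TPM and 7 of 9 reached 10 TPM. TPM (transcripts scaled to a common library total) were computed from the deposited counts and exon lengths, so that genes of different length can be set side by side. Of all 50600 genes, 11483 (22.7%) reached 1 TPM and 8109 (16.03%) reached 10 TPM in every library, and the median of the 9 genes was 128 TPM against 28.6 TPM for all genes at 1 TPM. The inhibitory receptors were the highest, the co-stimulatory receptors and the PD-1 ligands lay in the middle, and Cd80 and Cd86 were the lowest. The libraries held 47558517 to 60102919 gene-assigned fragments apart from replicate 2 with 273136467, so its counting error is the smallest. In bulk RNA a smaller number of cells that express a gene and less of its RNA per cell cannot be told apart, and RNA does not measure the surface protein.

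Among the co-stimulatory receptors Cd28 (ENSMUSG00000026012.2, mm10 chr1:60716800-60773359, + strand) had 138, 127, 129 and 131 TPM in replicates 1 to 4, from 15033, 61550, 11150 and 11240 fragments. Its mean was 131 ± 4.99 TPM (SD, n = 4), rank 1617 of all genes. The 4 values lay within 8.95% of each other, the highest in replicate 1.

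Icos (ENSMUSG00000026009.14, mm10 chr1:60977927-61000320, + strand), the receptor that supports follicular helper cells, had 107, 102, 99.5 and 102 TPM, from 6535, 27643, 4824 and 4923 fragments. Its mean of 103 ± 3.31 TPM (SD, n = 4) was below that of Cd28, and the highest Icos library was below the lowest Cd28 library. Within each library Icos was 0.772 to 0.802 times Cd28, a difference of -0.35 ± 0.02 in log2(TPM + 1) (SD, n = 4; exact sign-flip permutation test, two-sided, p = 0.125, adjusted 0.132 over 18 pairs). This p is the smallest that 4 libraries allow, and the same holds for every pair that kept 1 direction.

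Among the inhibitory receptors Pdcd1 (ENSMUSG00000026285.7, mm10 chr1:94038305-94052553, - strand) was the highest member of the family, with 370.5, 428, 417 and 413 TPM in replicates 1 to 4. These values rest on 12686, 65347, 11381 and 11184 fragments, and the mean was 407 ± 25.2 TPM (SD, n = 4), rank 390 of all genes. Replicate 1 was the lowest, and the highest library exceeded it by 15.5%.

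Btla (ENSMUSG00000052013.14, mm10 chr16:45224315-45252895, + strand) had 337, 337, 353 and 331 TPM, from 19459, 86881, 16243 and 15135 fragments. With a mean of 339.5 ± 9.32 TPM (SD, n = 4) and a coefficient of variation of 2.75%, it was the steadiest of the 9 genes. Pdcd1 exceeded Btla in all 4 libraries, by 1.10 to 1.27 times.

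Ctla4 (ENSMUSG00000026011.13, mm10 chr1:60887000-60915832, + strand) had 252, 254, 210.0 and 222 TPM, from 10405, 46875, 6915 and 7252 fragments, with a mean of 234 ± 21.9 TPM (SD, n = 4). Replicates 1 and 2 were above replicates 3 and 4, and the highest library exceeded the lowest by 21.0%. The summed TPM of the regulatory T-cell markers Foxp3 and Ikzf2 had the same split, with 7.23, 6.68, 5.39 and 5.41 in replicates 1 to 4. The part of such cells in the Ctla4 values was not tested.

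The inhibitory receptors exceeded Cd28 in every library. Pdcd1 was 2.68 to 3.37 times Cd28, a log2 difference of 1.62 ± 0.15 (SD, n = 4). Btla was 2.43 to 2.74 times Cd28, a log2 difference of 1.36 ± 0.07, and Ctla4 was 1.63 to 2.00 times Cd28, a log2 difference of 0.83 ± 0.13. The order Pdcd1, Btla, Ctla4 thus held in each library, with Pdcd1 0.80 ± 0.19 above Ctla4 and Btla 0.54 ± 0.16 above Ctla4 on the same scale (SD, n = 4). For each of these pairs the exact sign-flip test gave p = 0.125, adjusted 0.132.

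**Figure D1:**
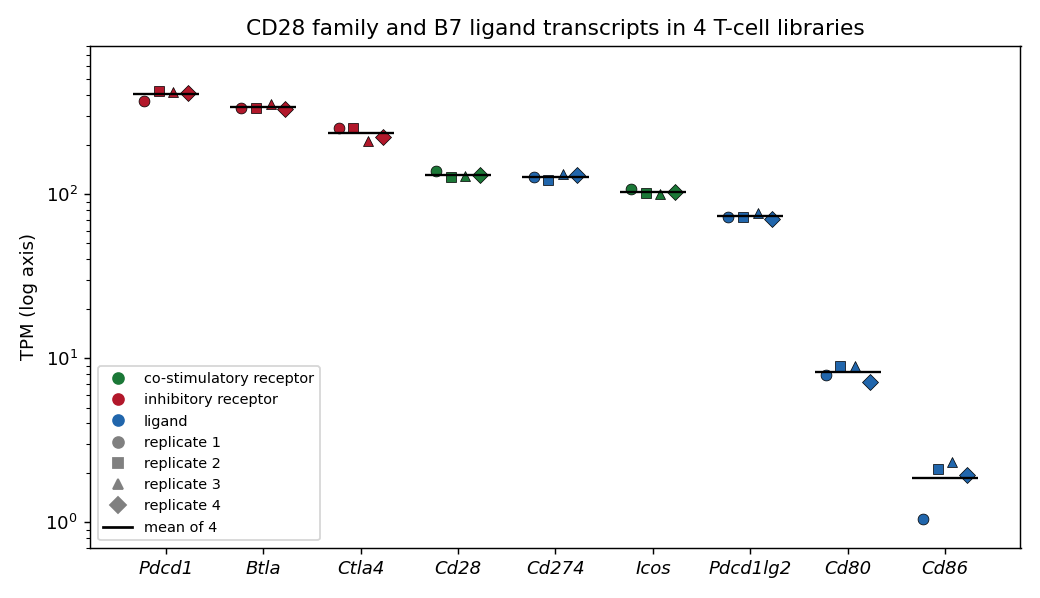
TPM of the 9 genes (log axis) in each of the 4 libraries, with the shape of a point for the replicate, its colour for the role of the gene and a bar for the mean. The inhibitory receptors lie between 210.0 and 428 TPM, Cd28, Cd274 and Icos between 99.5 and 138 TPM, Pdcd1lg2 below them, and Cd80 and Cd86 below 10 TPM in every library.

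Among the 4 ligand genes, those of the PD-1 ligands were the highest. Cd274 (ENSMUSG00000016496.7, mm10 chr19:29367455-29388095, + strand), encoding PD-L1, had 127, 121, 132 and 131 TPM in replicates 1 to 4, from 8140, 34720, 6778 and 6677 fragments. Its mean was 128 ± 5.18 TPM (SD, n = 4), close to that of Cd28. The log2(TPM + 1) difference of Cd28 minus Cd274 was 0.13, 0.07, -0.04 and -0.01 in replicates 1 to 4, a mean of 0.04 ± 0.07 (SD; exact sign-flip permutation test, two-sided, p = 0.5). Cd28 was thus higher in 2 of 4 libraries with the exon lengths in the files. With the length of the main coding transcript, and all fragments of the gene kept, it was higher in all 4, by 0.53 on average. The order of these neighbours thus depends on the length used.

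Pdcd1lg2 (ENSMUSG00000016498.9, mm10 chr19:29410919-29471157, + strand), encoding PD-L2, had 72.5, 72.5, 77.1 and 71.0 TPM, from 2116, 9443, 1792 and 1638 fragments. Its mean was 73.3 ± 2.64 TPM (SD, n = 4). Cd274 was 1.67 to 1.85 times Pdcd1lg2 in the 4 libraries, a log2 difference of 0.80 ± 0.06. Both ligand genes stood below their receptor, and Cd274 was 0.283 to 0.342 times Pdcd1.

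Cd80 and Cd86, the ligands shared by CD28 and CTLA-4 that antigen-presenting cells carry at high level, were the lowest of the family. Cd80 (ENSMUSG00000075122.4, mm10 chr16:38458933-38486933, + strand) had 7.85, 9.00, 8.94 and 7.17 TPM, from 237, 1212, 215 and 171 fragments, with a mean of 8.24 ± 0.891 TPM (SD, n = 4). Replicates 2 and 3 were the higher ones, and the highest library exceeded the lowest by 25.6%.

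Cd86 (ENSMUSG00000022901.13, mm10 chr16:36603869-36666081, - strand) had 1.05, 2.12, 2.34 and 1.93 TPM, from 68, 613, 121 and 99 fragments, with a mean of 1.86 ± 0.566 TPM (SD, n = 4). Replicate 1 stood below the others, with an exact 95% Poisson interval of 0.813 to 1.33 TPM, against 1.57 to 2.35 TPM in replicate 4, the next lowest. These intervals cover counting error only. Cd80 was 3.72 to 7.50 times Cd86, Pdcd1lg2 was 8.06 to 9.91 times Cd80, and Cd274 was 56.6 to 121 times Cd86.

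B cells are one known source of Cd80 and Cd86. Of 5 B-cell markers 1 (Cd79b) reached 1 TPM in every library, and the summed TPM of the list was 4.27, 7.01, 6.72 and 3.33 in replicates 1 to 4. Ms4a1 had 0.392, 0.443, 0.240 and 0.196 TPM. Like Cd80, these sums were higher in replicates 2 and 3 than in replicates 1 and 4, and their part in the values of Cd80 and Cd86 was not tested.

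Defining markers of dendritic cells, macrophages and monocytes were each below 1 TPM in every library, though not all were absent. None of 6 dendritic cell markers reached 1 TPM in every library, their sum was 0.455 to 0.962 TPM, and Itgax, Clec9a and Siglech had 0 fragments in each library. Zbtb46 was the highest of them, with 0.404, 0.765, 0.574 and 0.452 TPM in replicates 1 to 4, from 61, 515, 69 and 54 fragments. None of 6 macrophage and monocyte markers reached 1 TPM in every library either, with a sum of 0.355 to 1.16 TPM and 0 fragments for Csf1r and Fcgr1. Adgre1 had 0.312 ± 0.144 TPM (SD, n = 4). Lyz2 had 0.642 and 0.202 TPM in replicates 1 and 2 and 0 fragments in replicates 3 and 4. The 3 MHC class II genes all reached 1 TPM in every library and summed to 13.9 to 16.1 TPM. The label T-cell was checked with 7 T-cell markers, each of which had at least 10 TPM in every library, with a sum of 4021 to 4326 TPM. Of the CD8 T-cell markers, Cd8a had 0.839 ± 0.0254 TPM and Cd8b1 46.7 ± 3.55 TPM (SD, n = 4). The 2 natural killer cell markers summed to at most 0.172 TPM, with Klrb1c at 0 fragments.

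**Figure D2:**
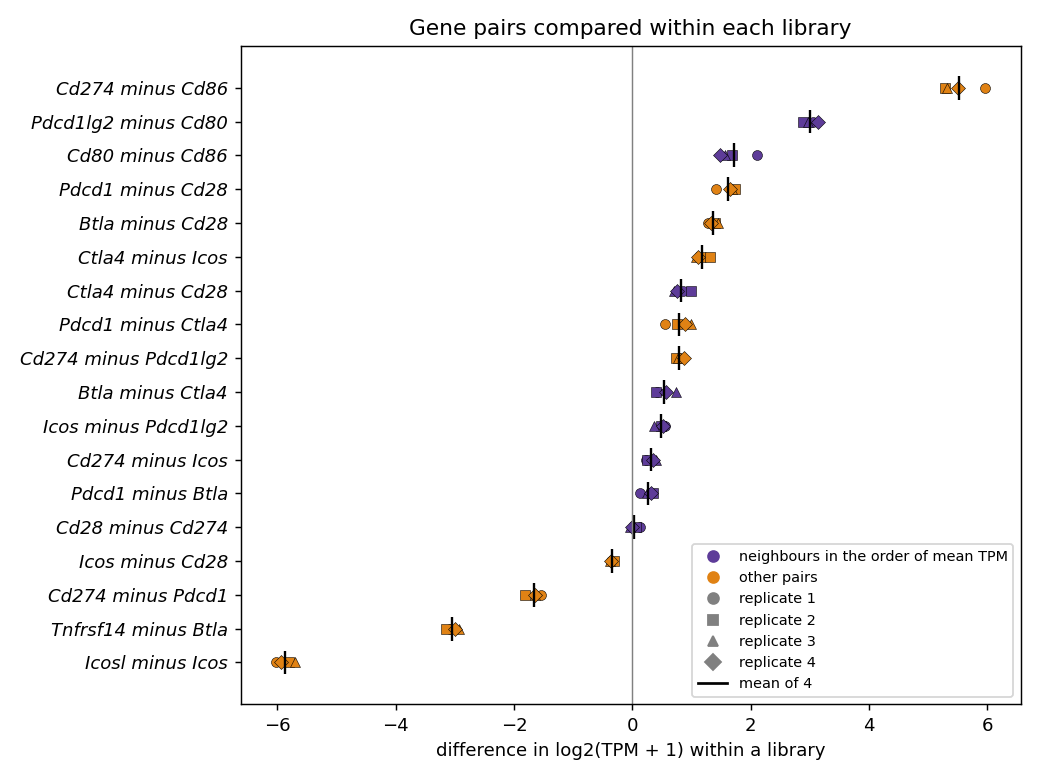
Difference in log2(TPM + 1) between the first and the second gene of each of 18 pairs, taken within each library (points, shaped by replicate), with the mean of 4 as a bar. The points of 17 pairs lie on 1 side of 0, and those of Cd28 minus Cd274 lie on both sides of it.

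By mean level the order was Pdcd1, Btla, Ctla4, Cd28, Cd274, Icos, Pdcd1lg2, Cd80 and Cd86. Of the 8 neighbouring pairs in this order, 7 kept their direction in all 4 libraries, and the exception was Cd28 with Cd274. Cd274 exceeded Icos by 0.31 ± 0.08, Icos exceeded Pdcd1lg2 by 0.48 ± 0.08, Pdcd1lg2 exceeded Cd80 by 3.01 ± 0.11 and Cd80 exceeded Cd86 by 1.71 ± 0.28 in log2(TPM + 1) (SD, n = 4). The widest step between neighbours was thus the one between Pdcd1lg2 and Cd80. Since neighbours are set by the means of the same values, their direction describes the order and adds no support to it.

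Summed by role, the 3 inhibitory receptors had 959, 1019, 980.2 and 966 TPM in replicates 1 to 4. The 2 co-stimulatory receptors had 246, 229, 228 and 233 TPM, and the 4 ligands had 208, 205, 221 and 212 TPM. The inhibitory sum was 4.20 times the co-stimulatory sum, a log2 ratio of 2.07 ± 0.08 (SD, n = 4; exact sign-flip permutation test, two-sided, p = 0.125). The ligands stood at 0.904 times the co-stimulatory receptors, a log2 ratio of -0.15 ± 0.08, and at 0.216 times the inhibitory receptors, a log2 ratio of -2.22 ± 0.07. Among the ligands, Cd274 and Pdcd1lg2 together had 199, 194, 210 and 202 TPM, against 8.90, 11.1, 11.3 and 9.10 TPM for Cd80 and Cd86 together. That is a mean ratio of 20.2, or 4.32 ± 0.18 on the log2 scale.

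The total over the 9 genes was 1427 ± 19.3 TPM (SD, n = 4). Pdcd1 made up 28.5% of it on average, Btla 23.8%, Ctla4 16.4%, Cd28 9.21%, Cd274 8.97%, Icos 7.21% and Pdcd1lg2 5.14%. Cd80 made up 0.577% and Cd86 0.130%.

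None of the 9 genes was called as varying between libraries beyond other genes at its level. A goodness-of-fit test with edgeR, in which the spread of each gene is set against the trend over all genes, called 46 of 12712 genes (0.362%) at an adjusted p under 0.05 and 0 of the 9. At an unadjusted p under 0.05 it called 704 of all genes (5.54%) and again 0 of the 9. The median residual deviance was 1.36 over the 9 genes and 1.98 over all genes tested. Ctla4 had the highest deviance of the 9, at 7.50 (edgeR adjusted p = 0.938), and 6.10% of all genes had a higher one. Cd86 followed at 5.79 (edgeR adjusted p = 1.00), and without replicate 1 its deviance was 0.366. Btla had the lowest, at 0.345, and 92.7% of genes had a higher one. A p that misses the threshold does not show that the libraries were alike.

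The genes of lowest level varied the most. Cd86 had a coefficient of variation of 30.5%, against a median of 18.7% for the 458 genes between 1 and 2 TPM, and Cd80 had 10.8%, against a median of 11.1% for the 1300 genes between 5 and 10 TPM. Ctla4 had 9.35%, above the median of 4.88% and below the 95th percentile of 10.2% for the 702 genes between 200 and 500 TPM. Pdcd1 had 6.20% in that range. Between 100 and 200 TPM the median was 4.80%, and Cd28 had 3.80%, Icos 3.23% and Cd274 4.05%, all below it. Counting error alone was 0.462% to 1.20% per library for Ctla4, and 4.04% to 12.1% for Cd86.

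**Figure D3:**
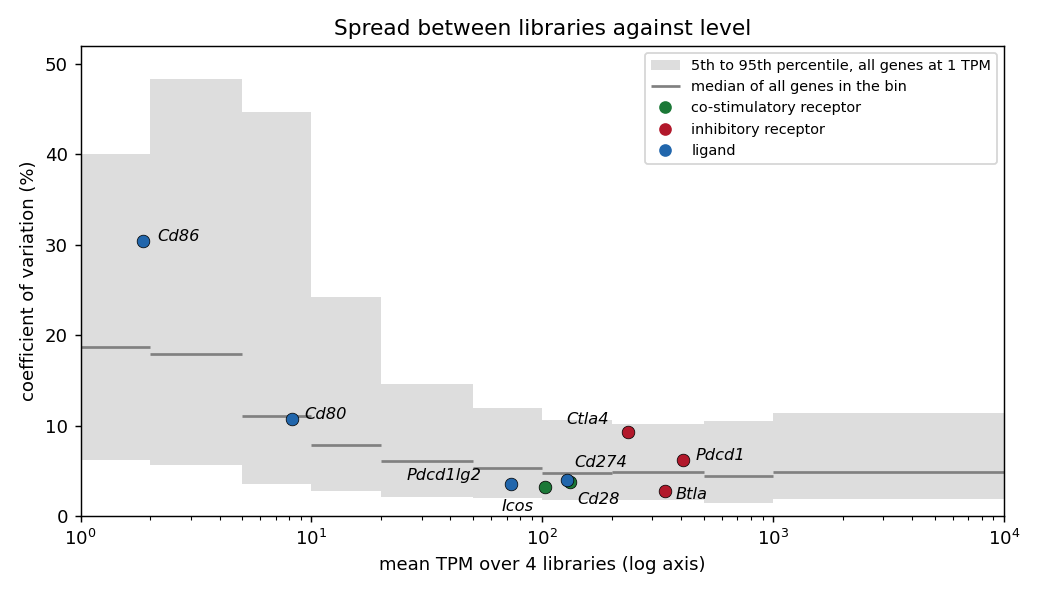
Coefficient of variation over the 4 libraries (percent) against mean TPM (log axis) for the 9 genes, coloured by role. Grey blocks run from the 5th to the 95th percentile of all genes in a range of TPM and grey lines mark the median, and all 9 points lie within the blocks.

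The partners of these receptors were unevenly transcribed. Icosl, encoding the ligand of ICOS, had 0.784 ± 0.124 TPM (SD, n = 4), 0.00625 to 0.00939 times Icos in the 4 libraries. On the log2 scale the difference was -5.86 ± 0.14 with a pseudocount of 1 and -6.87 with a pseudocount of 0.1, so at this low level it depends on the pseudocount. Tnfrsf14, encoding the BTLA ligand HVEM, had 38.7, 37.0, 45.3 and 40.8 TPM, 0.110 to 0.128 times Btla. Tnfsf14, encoding LIGHT, another ligand of HVEM, had 73.4 ± 4.50 TPM, and Cd160, encoding a further receptor of HVEM, 2.43 ± 0.200 TPM. Vsir, encoding the inhibitory protein VISTA, was the highest of these genes with 125 ± 7.997 TPM. Cd276, encoding B7-H3, had 0.205 ± 0.117 TPM, and Vtcn1, encoding B7-H4, had 0, 5, 0 and 0 fragments. Thus 4 of the 7 other B7 and ligand genes reached 1 TPM and 3 reached 10 TPM in every library.

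Genes that carry the signals of CD28 and ICOS were all present. In every library all 20 reached 1 TPM and 19 reached 10 TPM, and the median was 79.9 TPM. Lck, the kinase that phosphorylates the receptor tails, had 666 ± 24.0 TPM, Akt1, a kinase downstream of phosphoinositide 3-kinase, 309.8 ± 12.8 TPM and Pik3cd, its leukocyte catalytic subunit, 285 ± 18.7 TPM. The lowest were Pik3r2, a regulatory subunit, with 26.8 ± 1.05 TPM and Pik3cb, another catalytic subunit, with 8.16 ± 0.459 TPM.

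All 6 phosphatase genes that act for the inhibitory receptors were above 10 TPM in every library, with a median of 202 TPM. Ptpn6, encoding SHP-1, had 650.0 ± 27.0 TPM and exceeded Ptpn11, encoding SHP-2, with 166 ± 7.78 TPM (SD, n = 4). Of the subunits of phosphatase 2A, which binds CTLA-4 and CD28, Ppp2r1a had 389 ± 23.7, Ppp2cb 238 ± 24.1 and Ppp2ca 127 ± 5.71 TPM. Inpp5d, encoding the lipid phosphatase SHIP-1, had 64.2 ± 3.64 TPM.

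CTLA-4 is stored inside the cell and recycled, and the 7 genes listed for its trafficking all reached 10 TPM in every library. Def6 had 207 ± 6.65 TPM and Lrba, encoding a protein that protects CTLA-4 from lysosomal breakdown, 22.9 ± 1.05 TPM. The clathrin adaptor subunit genes Ap1m1 and Ap2m1 had 161 ± 10.5 and 100.2 ± 2.75 TPM. Rab8a had 101 ± 2.34, Trat1 59.3 ± 6.55 and Rab11a 52.6 ± 5.20 TPM (SD, n = 4).

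Of the 4 decay factors that destroy messages such as that of Icos, all reached 1 TPM and 3 reached 10 TPM in every library. Zc3h12d had 130.3 ± 9.34, Zc3h12a, encoding Regnase-1, 118 ± 7.92, Rc3h1, encoding Roquin-1, 53.9 ± 1.34 and Rc3h2, encoding Roquin-2, 9.64 ± 0.484 TPM. Cmtm6, which keeps PD-L1 protein at the cell surface, had 166 ± 1.62 TPM and its relative Cmtm4 19.4 ± 0.281 TPM.

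Of 17 transcription factors known to act on these genes, 15 reached 1 TPM and 13 reached 10 TPM in every library. Irf4, induced by antigen receptor signals, had 827 ± 38.2 TPM, Tcf7 620.0 ± 14.4 TPM and Nfkb1 287 ± 14.3 TPM. The lowest were Tox2 with 8, 79, 0 and 0 fragments and Prdm1, a repressor of Pdcd1 in activated T cells, with 5, 74, 10 and 0 fragments. Over all lists, 58 of 63 genes reached 1 TPM and 53 reached 10 TPM in every library. Of the 59 that could be tested, edgeR called 0 as varying between libraries, and only Ppp2cb (edgeR adjusted p = 0.701) had an unadjusted p under 0.05. By the same test 0.362% of all genes were called and 5.54% had an unadjusted p under 0.05, so these counts do not set the lists apart.

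**Figure D4:**
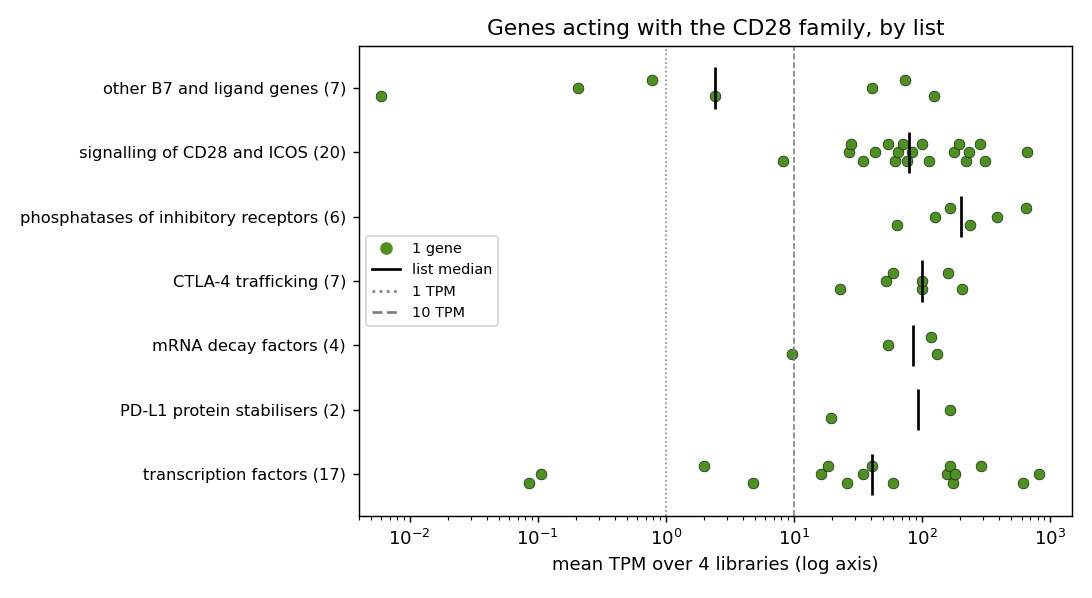
Mean TPM over the 4 libraries (log axis) of the 63 genes that act with the family, 1 point per gene, in 7 lists whose sizes stand in brackets, with the median of each list as a bar. The lists of phosphatases, trafficking genes and PD-L1 stabilisers lie wholly to the right of 10 TPM, whereas the other B7 and ligand genes spread from 0.00602 to 125 TPM.

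The gene of the lists whose profile was most like that of a member was found by the root mean square difference of log2(TPM + 1) over the 4 libraries, which weighs level far more than shape. For Icos it was Malt1 (0.035), for Cd28 Ppp2ca (0.061), for Cd274 Zc3h12d (0.072) and for Pdcd1lg2 Akt2 (0.076). For Pdcd1 it was Ppp2r1a (0.088), for Btla Akt1 (0.146), for Cd80 Pik3cb (0.147) and for Cd86 Tbx21 (0.280).

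Neighbouring genes of the family differed in what lay between them. Cd28, Ctla4 and Icos follow each other on the + strand of chromosome 1, with 113.64 kb and 62.1 kb between them, and none of the 6 genes and the 1 gene in those gaps reached 10 TPM in every library. Cd274 and Pdcd1lg2 are 22.8 kb apart on chromosome 19 with no gene between them. No exon base of the 9 genes overlapped an exon of another gene on either strand.

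The exon length in the files bears on the levels, since it covers every annotated transcript of a gene. It was 1.41 times the length of the main coding transcript for Cd28, 1.44 times for Cd86, 1.21 times for Ctla4 and 1.06 times for Icos, and at most 1.00 times for the other 5 genes. With the length of the main coding transcript, Cd28 had 185 ± 7.03 TPM, Ctla4 283 ± 26.4, Icos 109 ± 3.51 and Cd86 2.68 ± 0.816 TPM (SD, n = 4). Here the main transcript is the coding one with the most counted bases, which need not be the most expressed. All fragments of the gene were kept and the library total was left unchanged. Where fragments lay outside that transcript, these values are thus too high. The order of the 9 means was the same, all 18 pairs rather than 17 kept 1 direction in all 4 libraries, and the inhibitory over co-stimulatory log2 ratio was 1.81 rather than 2.07.

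The messages differ in their 3′ untranslated regions, where the letters ATTTA form the core of AU-rich elements. Cd274 held 11 in 2683 bases, or 4.10 per kb, and 12.2% of 19745 genes had more per kb. Cd28 held 6 in 3574 bases, Btla 5 in 2295, Ctla4 3 in 1115, Icos 2 in 2606 and Pdcd1lg2 2 in 669. Pdcd1, Cd80 and Cd86 held 0, in 1000, 532 and 1493 bases. Of the 19745 genes, 68.2% had more per kb than these, and the others held 0 as well. The median over all genes was 1.35 per kb. These counts are properties of the annotation and do not measure decay.

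Promoter windows from RefSeq (GRCm38.p6), 250 bases before to 50 after a start site, were matched for 6 of the 9 genes, those other than Cd28, Icos and Cd86. Those of Pdcd1, the highest of the family, and of Cd80, the lowest with a window, are printed 5′ to 3′ on the gene's strand up to the base before the start, with motif matches in capitals. They lie at chr1:94052554-94052803 (- strand) and chr16:38458683-38458932 (+ strand).
Pdcd1 upstream: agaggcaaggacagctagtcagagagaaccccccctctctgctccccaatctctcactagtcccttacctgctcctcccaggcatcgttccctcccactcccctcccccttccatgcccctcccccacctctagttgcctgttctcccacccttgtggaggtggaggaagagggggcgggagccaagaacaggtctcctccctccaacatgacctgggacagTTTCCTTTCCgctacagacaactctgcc
Cd80 upstream: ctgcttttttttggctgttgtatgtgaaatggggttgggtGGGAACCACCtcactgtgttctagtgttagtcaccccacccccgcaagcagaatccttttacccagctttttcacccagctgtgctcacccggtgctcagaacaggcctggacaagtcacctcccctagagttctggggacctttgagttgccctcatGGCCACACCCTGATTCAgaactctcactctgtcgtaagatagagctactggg
The capitals mark GGAAA, the core of NFAT sites, 2 times in Pdcd1 (read as TTTCC, at -28 and -23), and in Cd80 the AP-1 letters TGANTCA at -42 and the NF-kB pattern, GGG and CC with any 5 bases between, at -210 and -52, the last of which ends directly before the AP-1 match. Both strands were searched. Of 32851 promoter windows of the same length, 61.3% held GGAAA, 50.8% the NF-kB pattern, 7.81% TGANTCA and 13.6% TATAAA, and 3.44% held a pair of GAAA with any 2 bases between, the pattern of interferon-stimulated elements. GGAAA also stood at -144 in Ctla4, at -120 and -1 in Cd274 and at -22 in Pdcd1lg2, which held the NF-kB pattern at -244. TATAAA stood after the start in Ctla4 and, on the other strand, in Cd80. The interferon-stimulated pattern was in none of the 6 windows, and that of Btla held none of the 5 motifs. A match describes the letters only, and binding was not measured.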

How the data were processed

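RNA of mouse T cells was sequenced in 4 libraries. The authors deposited raw counts. Per the file headers, read pairs were assigned with featureCounts 1.4.6-p4 to the exons of GENCODE vM13 genes with strand setting 2 (reverse-stranded), and per the labels the build is mm10. The assay is titled total RNA-seq, whereas the linked library protocol names PolyA+ selection. Aligner settings are not given in the sources used here. Symbols were matched by gene ID for 50376 of 50600 genes.

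TPM were computed here from counts and exon lengths. Pairs of genes were compared within libraries by flipping the signs of the differences exactly (two-sided permutation test), with Benjamini-Hochberg adjustment over 18 pairs (python 3.11.15, scipy 1.17.1). Spread was tested with edgeR 4.0.16 (R 4.3.3): filterByExpr with a minimum count of 10, TMM, an intercept-only negative binomial fit with trended dispersion, and the deviance against chi-square with 3 degrees of freedom, adjusted over 12712 genes at 0.05. The fit was also run on counts simulated from the fitted model itself, which cannot show that its p-values hold for these libraries. Size factors of DESeq2 1.42.0 served as an alternative. In each of the 6 pairs of libraries the counts differed beyond sampling noise (chi-square over its degrees of freedom 9.67 to 31.0), which does not show that they came from separate animals or RNA samples. Each library was taken as 1 sample, as labelled. Totals of 47558517 to 273136467 fragments put the detection floor of 3 fragments at 0.0379 to 0.214 TPM for a gene with 1 kb of exon. The floor is lower for longer genes. Floors and intervals reflect counting error alone, as copies made by PCR are not separate molecules.

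The members, gene lists and tests were chosen with earlier results of these data known. Named genes are the 9 members, all genes of lists of 7 or fewer, the 3 highest and 2 lowest of longer lists, the genes of the pairs, the cell type markers and the gene most like each member; some of these are not reported here. Stat3 was named because 1 library stood apart. Comparison of protein sequences, planned in the design, was not made, and coding motifs were read from transcripts instead.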

Additional observations from a re-analysis of the deposited data

Results flagged for a closer look

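In 4 of 106 sets of 4 library values, 1 library stood apart from the others by a gap above the 95% critical value of Dixon's test; chance alone gives about 1 in 20. No member of the family was among them. Total fragments were highest in replicate 2, at 273136467, against 47558517 to 60102919 in the others. Ppp2cb, encoding a catalytic subunit of phosphatase 2A, was highest in replicate 1, at 274 TPM, against 221 to 229 TPM in the others. Stat3, which acts on Cd274 transcription, was lowest in replicate 1, at 54.7 TPM, against 60.3 to 61.2 TPM. Vtcn1 was highest in replicate 2, at 0.0241 TPM from 5 fragments, against 0 fragments in the others, which were also less deeply sequenced.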

How the results depend on the processing

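The order of the 9 mean levels was the same under all 9 alternatives, and 0 of 144 alternatives of the pair differences reversed direction. For the 17 pairs with 1 direction in all libraries, leaving out a library or changing the pseudocount could not reverse it. Nor could leaving out a library or rescaling the library totals change the order of their means. Of 81 alternatives of the member levels, 65 moved by less than 1 SD. Those that left out 1 of the 4 libraries could not move a mean by 1 SD, so they add nothing to this count. The length of the main coding transcript could not move Pdcd1, Cd80, Cd274 or Pdcd1lg2, since its counted bases equal their exon length. Nor could it move the differences between these genes. The mean of every member rose when mitochondrial, ribosomal protein and Gm-named genes were taken out of the TPM total. Pdcd1 then had 483 rather than 407 TPM, and Cd28 156 rather than 131 TPM. The inhibitory over co-stimulatory log2 ratio, 2.07, was 1.81 with the length of the main coding transcript, an alternative chosen after seeing the data, and 2.48 without the highest member of each class. The ligands over co-stimulatory log2 ratio, -0.15, was -0.47 and -0.30 under the same settings. The log2 ratio of the PD-1 ligand genes over Cd80 and Cd86, 4.32, was 5.36 without the highest member of each class. Genes varying between libraries numbered 46, against 862 with a common dispersion and 25 to 40 when 1 replicate was left out, lowest without replicate 2. With a common dispersion Cd86 passed the threshold (edgeR adjusted p = 0.0140), the only one of 81 member tests in the alternatives to do so; its adjusted p in the main test was 1.00. Other settings gave 42 to 54 genes. The causes of these shifts were not tested, apart from those set by construction. Lengths from coding sequence of RefSeq proteins were not run. Samples could not be paired between conditions because all libraries belong to 1 group, and only genes were paired, within each library. With 4 libraries the exact sign-flip test cannot give a p below 0.125.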
